A study of Caenorhabditis elegans with 64 samples.

Results

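The pals genes of Caenorhabditis elegans encode proteins that share the ALS2CR12 signature, and every gene whose WormBase symbol starts with pals- was taken. The rule found 39 genes, of which pals-36 is annotated as a pseudogene, and all 39 were present among the 45904 gene names of the mRNA tables and the 31106 genes of the small RNA tables. Whole Day 1 adult hermaphrodites of simr-1(cmp36), which lack the Tudor domain protein SIMR-1, were compared with wild-type animals of the N2 strain. Animals of both strains were cultured at 20°C, or at 25°C for 1, 2, 7 or 10 generations. Each of these 10 combinations of strain and culture had 3 mRNA libraries and 2 small RNA libraries, each from a pool of synchronized animals. A further 14 small RNA libraries, 1 per strain and all at 20°C, came from mut-16(pk710), nyn-2(tm4844); nyn-1(tm5004), rde-8(tm2252), simr-1(cmp36), simr-1; hpo-40, hpo-40(cmp46), wago-1(tm1414), math-33(ok2974), C33G3.6(cmp44), rsd-2(pk3307), hgo-1(tm4989), Y57G11C.3(cmp47) and F37C4.5(ok3454) mutants and from wild-type animals. The math-33 animals were listed by the study as asynchronous.

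Many pals genes belong to the intracellular pathogen response, a set of genes that C. elegans induces when microsporidia or the Orsay virus infect its intestine, and also under prolonged heat stress or proteasome block. A pair of members of the family that share an operon control this response in opposite directions: loss of pals-22 switches the response genes on, raises thermotolerance and enhances RNA silencing, and loss of pals-25 undoes these effects. pals-17 is known as another repressor, with pals-20 and pals-16 acting against it, whereas pals-5 and pals-6 are response genes whose induction is used as its readout. Small RNAs of the mutator pathway are made on mRNA templates by RNA-dependent RNA polymerases, are bound by Argonaute proteins such as WAGO-1, and silence the genes from which they are copied.

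The following sequences are the 250 bases before the annotated start of 3 genes that mark the contrasts of this account. pals-22 is the regulator that carried most small RNAs, pals-24 had the highest mRNA level per kb, and pals-39 changed by a large factor at 25°C. The 92 bases between pals-22 and pals-25 show how close the pair is. Capitals mark a match on either strand to any of 4 short motifs: TGATAA (the core motif bound by GATA factors), TTCNNGAA and GAANNTTC (pairs of heat-shock units) and TATAAA (the core promoter element named the TATA box).
pals-22 (chrIII:132168-132417, + strand): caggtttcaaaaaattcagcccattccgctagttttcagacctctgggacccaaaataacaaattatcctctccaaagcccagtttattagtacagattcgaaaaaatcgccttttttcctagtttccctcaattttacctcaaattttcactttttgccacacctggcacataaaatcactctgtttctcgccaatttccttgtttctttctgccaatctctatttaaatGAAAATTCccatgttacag
pals-24 (chrIII:120185-120434, + strand): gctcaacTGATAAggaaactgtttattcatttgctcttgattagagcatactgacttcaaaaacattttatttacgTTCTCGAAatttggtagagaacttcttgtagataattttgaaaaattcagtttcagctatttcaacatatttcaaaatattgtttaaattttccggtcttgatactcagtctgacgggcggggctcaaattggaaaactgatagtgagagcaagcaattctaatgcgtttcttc
pals-39 (chrV:12443855-12444104, - strand): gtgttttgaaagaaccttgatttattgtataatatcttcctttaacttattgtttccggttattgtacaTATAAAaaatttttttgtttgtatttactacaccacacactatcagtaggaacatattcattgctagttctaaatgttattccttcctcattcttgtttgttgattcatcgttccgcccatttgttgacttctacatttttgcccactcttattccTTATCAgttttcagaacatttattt
pals-22 to pals-25 (chrIII:134402-134493, + strand): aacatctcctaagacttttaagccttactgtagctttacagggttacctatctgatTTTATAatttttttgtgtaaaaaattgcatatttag

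The pals-24 window held a TGATAA and a TTCNNGAA match, that of pals-39 a TATAAA and a TGATAA match (this motif read on the other strand), and that of pals-22 a GAANNTTC match. The stretch between pals-22 and pals-25 held a TATAAA match on the other strand. Over the family, TGATAA was present in the window of 17 of 39 members (43.6%) and of 26.8% of 19971 genes, and TATAAA in 24 members (61.5%) and 35.2% of all genes. TTCNNGAA was present in 5 members (12.8%) and 15.0% of all genes, and GAANNTTC in 7 members (17.9%) and 15.7% of all genes. These are matches to letters in RefSeq-annotated windows, and neighbouring members with overlapping windows share them.

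mRNA levels were compared as CPM (read counts relative to library size, after edgeR's TMM scaling between libraries), and per kb of exon when genes were compared. Per library 8055126 to 38633453 mRNA reads were counted to genes (median 16807424). Averaged over all 30 libraries, the family ranged from 0.0234 CPM per kb for pals-10, which was at 0 in 27 libraries, to 28.6 for pals-24, followed by pals-23 (19.3), pals-17 (7.54), pals-34 (7.47) and pals-18 (5.34). In wild-type animals at 20°C alone the order began with pals-24 (11.2 CPM per kb), pals-23 (7.53), pals-17 (4.94), pals-22 (4.03), pals-25 (2.76) and pals-34 (2.64), and pals-18 was at 1.70. pals-22 averaged 4.58 CPM per kb, pals-25 averaged 3.49, and the reporter gene pals-5 averaged 0.106 and was at 0 in 11 libraries. In each comparison a gene was tested when its counts over the compared libraries summed to at least 10, and it is said to rise or fall when edgeR's quasi-likelihood test gave, after Benjamini-Hochberg adjustment over all genes tested, a p no higher than 0.05 and the level changed 2-fold or more. A member tested only because of the group in which it was high could hardly stay level, so counts of members are read beside the share of all tested genes that changed. Reads of 50 bases could be placed uniquely over at least 95% of exon positions in all but 5 members: pals-36 (60.2%), pals-13 (74.3%), pals-37 (78.4%), pals-11 (80.6%) and pals-7 (82.7%), whose values are uncertain. The same holds for members that overlap another annotated gene: pals-3 with pals-12, pals-13 with C17H1.2, pals-20 with Y82E9BR.5, pals-24 with C29F9.12, pals-26 with srpr-1.1 and pals-37 with anr-30.

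The members lay on chromosomes I (15 genes), III (14), IV (2) and V (8), in 11 groups when genes within 20000 bases of each other were joined, given here in the WBcel235 build. The largest held 14 genes between positions 13083321 and 13144623 of chromosome I. The regulatory pair lay beside pals-24 and pals-23 at positions 120435 to 137973 of chromosome III. A 7-gene group covered positions 1376945 to 1406263 of chromosome III and held pals-17, pals-16, pals-20 and pals-18. Of the remaining groups, pals-36, pals-37, pals-39 and pals-38 lay together at positions 12434361 to 12446995 of chromosome V, whereas pals-1, pals-31, pals-32, pals-33 and pals-34 stood alone.

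To ask how the family responded to temperature, wild-type animals in the first generation at 25°C were compared with wild-type animals at 20°C. The summed mRNA of the 39 genes was 246 ± 3.35 CPM at generation 1 and 41.5 ± 4.55 CPM at 20°C (SD, n = 3 each), and the libraries of the groups did not overlap. Of 32 members tested, 29 rose and none fell, against 32.6% of all genes tested that rose. The median log2 fold change was 3.14 over the tested members and 0.28 over all genes. The 3 that did not pass were the regulators pals-22 and pals-25 and the overlapping gene pals-13, and 7 members had too few counts to test (pals-10, pals-11, pals-21, pals-28, pals-29, pals-30 and pals-40).

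Neither gene of the regulatory pair passed the test. pals-22 mRNA was at 4.14, 4.48 and 4.61 CPM in wild-type animals at generation 1, against 3.14, 4.19 and 3.47 CPM at 20°C, a log2 fold change of 0.25 ± 0.17 (SE; edgeR adjusted p = 0.181). pals-25 was at 3.72, 3.88 and 3.34 CPM at generation 1, against 3.14, 3.70 and 2.06 CPM at 20°C (log2 fold change 0.20 ± 0.20; edgeR adjusted p = 0.359). The libraries of the groups overlapped for both genes. Among the other known regulators, the repressor pals-17 rose by 1.39 ± 0.14 on the log2 scale, with 11.8, 11.1 and 12.1 CPM at generation 1 and 3.81, 5.23 and 3.86 CPM at 20°C (edgeR adjusted p = 1.38e-07). Its opponents also rose, pals-16 by 1.73 ± 0.19 (edgeR adjusted p = 5.87e-07) and pals-20 by 3.56 ± 1.09 (edgeR adjusted p = 0.008). pals-20 was scarce, with 0.690, 0.334 and 0.121 CPM at generation 1 and 0, 0 and 0.129 CPM at 20°C, so its groups overlapped.

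Of the response genes used as readouts, pals-6 was at 12.2, 13.9 and 12.5 CPM in wild-type animals at generation 1, against 0, 0.163 and 0.386 CPM at 20°C. Every library at 25°C was above every library at 20°C, and the log2 fold change was 6.31 ± 0.30 (SE; edgeR adjusted p = 1.64e-11). pals-5 was far less abundant, with 0.265, 0.468 and 0.668 CPM at generation 1 and 0.0748, 0 and 0 CPM at 20°C (log2 fold change 3.79 ± 0.93; edgeR adjusted p = 0.00172). The members with the highest levels rose by smaller factors: pals-24 was at 56.6, 52.2 and 51.3 CPM at generation 1, against 9.79, 10.5 and 10.0 CPM at 20°C (log2 fold change 2.38 ± 0.09; edgeR adjusted p = 8e-13). Its neighbour pals-23 changed by 2.39 ± 0.09, with 45.9, 49.1 and 44.6 CPM at generation 1 and 8.37, 9.26 and 8.62 CPM at 20°C. pals-34 changed by 2.82 ± 0.17 and pals-18 by 2.75 ± 0.16, and neither had overlapping groups.

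The largest fitted changes were those of pals-36, pals-15, pals-39, pals-6, pals-7, pals-32, pals-38, pals-14, pals-37 and pals-2, with log2 fold changes of 4.63 to 6.96. For 4 of them every wild-type library at 20°C was at 0, so the fitted value is no bound. Set against a floor of 3 counts summed over the 3 libraries at 20°C, the increase was at least 13.6-fold for pals-36, at least 11.5-fold for pals-15, at least 8.38-fold for pals-7 and at least 2.62-fold for pals-2. Those with counts at 20°C had clear levels: pals-39 was at 9.13, 9.76 and 8.56 CPM at generation 1, against 0.0748, 0.109 and 0.129 CPM at 20°C (log2 fold change 6.37 ± 0.28; edgeR adjusted p = 6.83e-12). pals-32 was at 12.4, 14.0 and 12.5 CPM at generation 1, against 0.299, 0.218 and 0 CPM at 20°C (log2 fold change 5.93 ± 0.26; edgeR adjusted p = 7.23e-12). pals-14 was at 8.17, 8.22 and 6.86 CPM at generation 1, against 0.150, 0.163 and 0.257 CPM at 20°C (log2 fold change 5.37 ± 0.28). All 4 genes of the chromosome V group around pals-39 rose, by 5.16 to 6.96, as did 11 of 12 tested members of the large chromosome I group (0.19 to 6.72) and 2 of 4 in the group that holds the regulatory pair (0.20 to 2.39). Of the 9 other genes inside groups of at least 3 members, C29F9.2 (3.27), Y82E9BR.6 (2.73), fbxa-138 (2.12) and Y82E9BR.5 (1.36) also rose, whereas the values of C17H1.2 (-0.98), Y26D4A.21 (-0.41) and B0284.3 (-0.04) did not pass and the other 2 were not tested.

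**Figure D1:**
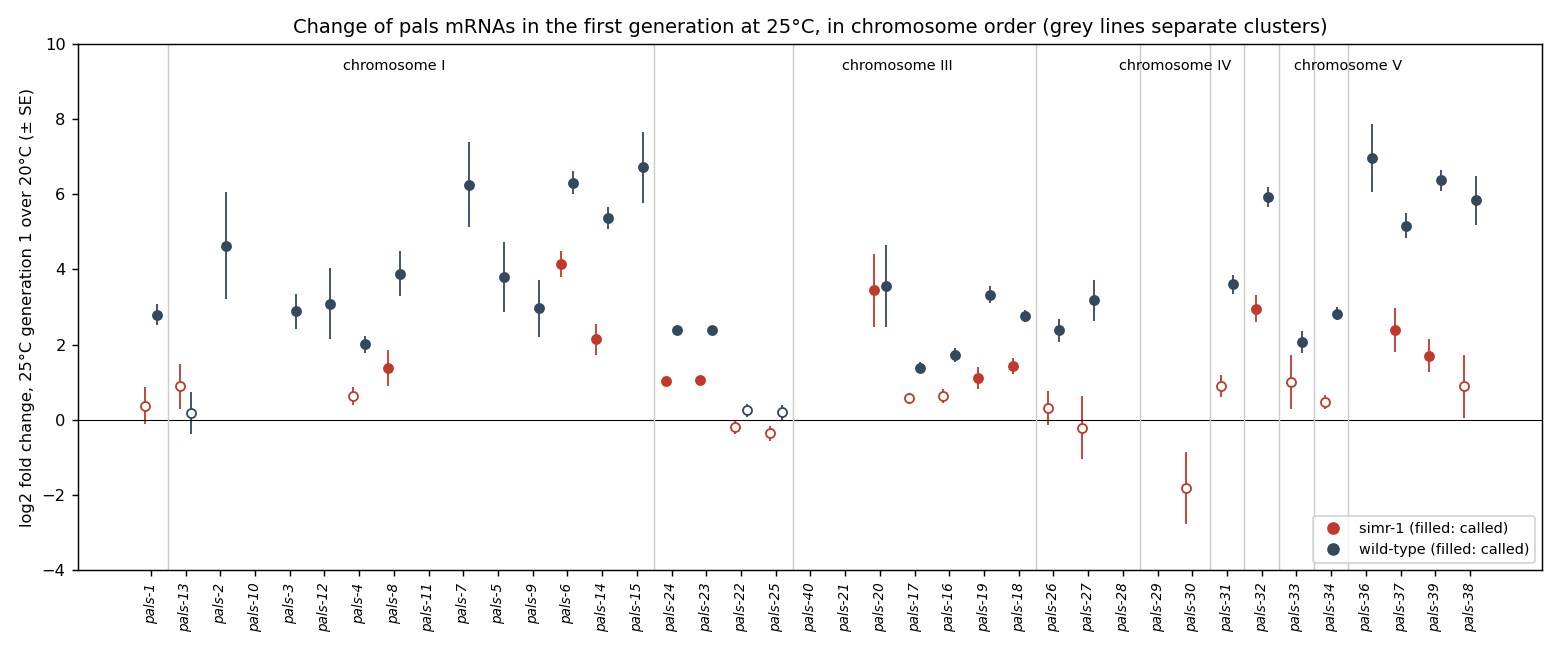
Change of each pals mRNA in the first generation at 25°C over 20°C, in chromosome order, as log2 fold change with its standard error, for simr-1 (red) and wild-type (dark blue). Filled points passed the test and at least a 2-fold change, and members without a point were not tested; 11 members passed in simr-1 animals and 29 in wild-type animals, while pals-22 and pals-25 lay near 0 in both.

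Other genes of the intracellular pathogen response were examined in the same comparison. Of 14 response genes outside the family, 11 were tested and 10 rose in wild-type animals at generation 1 over 20°C, with a median log2 fold change of 3.52. They included skr-5 (6.16 ± 0.29), skr-4 (2.85), skr-3 (2.31) and cul-6 (1.39 ± 0.13), which encode parts of a cullin-RING ubiquitin ligase, and eol-1 (4.62 ± 0.30), fbxa-158 (5.66) and F42C5.3 (5.15). F26F2.1, at 1.27 ± 0.73, did not pass (edgeR adjusted p = 0.128). Of 5 regulators outside the family, zip-1, a bZIP factor (1.24 ± 0.09), pnp-1, a purine phosphorylase (1.51 ± 0.08), and sta-1, a STAT-like factor (1.73 ± 0.10), rose. The values of drh-1, which encodes a sensor of viral RNA (-0.47), and lin-35, which encodes the retinoblastoma protein (-0.81), stayed under 2-fold.

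Markers of other cell types moved with this comparison. All 5 oocyte genes (rme-2, oma-1, puf-5, cbd-1 and chs-1) fell in wild-type animals at generation 1, and their summed level was 1328 to 1632 CPM there, against 6156 to 8077 CPM at 20°C. The 3 muscle genes rose (1805 to 2262 CPM at generation 1, 681 to 860.3 CPM at 20°C), 2 of 6 intestine genes rose and 1 fell (7196 to 8610.3 CPM against 2582 to 2921 CPM), 2 of 5 germ line genes fell (2649 to 2836 CPM against 5917 to 6606 CPM), 1 of 5 sperm genes rose (3.87 to 5.70 CPM against 3.89 to 5.45 CPM), 1 of 4 neuron genes rose (261 to 273 CPM against 150.0 to 179.6 CPM), and of 4 epidermis genes 1 rose and 1 fell (110.3 to 142 CPM against 545 to 595 CPM). No marker gene was at 0 in a whole group. In whole animals, fewer cells of a type and less RNA per cell cannot be told apart, and the part of these marker changes in the pals result was not tested. At generation 7 over 20°C in wild-type animals 6 of 26 tested members rose and 1 fell, against 10.4% and 2.46% of all genes, with 6627 to 8054 CPM of oocyte mRNA at generation 7 and no marker gene called. At generation 10 over 20°C 11 of 29 rose and none fell, against 29.2% of all genes that rose. The oocyte sum was 5264 to 5352 CPM at generation 10, below that at 20°C with none of the 5 genes called, while 3 of 5 germ line genes and 1 of 6 intestine genes fell, 2 of 5 sperm and 2 of 4 neuron genes rose, and of 4 epidermis genes 2 rose and 1 fell.

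simr-1 animals showed a smaller change under the same shift. Their summed pals mRNA was 99.0 ± 5.28 CPM at generation 1 and 49.9 ± 6.37 CPM at 20°C (SD, n = 3 each). Of 25 members tested, 11 rose and none fell, against 10.4% of all genes that rose, and the median log2 fold change was 0.90 over the tested members and 0.02 over all genes. All 11 were among the 29 of 32 tested members that rose in wild-type animals, so this overlap was nearly fixed beforehand. The change was 4.14 ± 0.34 for pals-6, 3.45 ± 0.97 for pals-20, 2.96 ± 0.35 for pals-32, 2.39 ± 0.58 for pals-37, 2.14 ± 0.42 for pals-14, 1.71 ± 0.43 for pals-39, 1.43 ± 0.21 for pals-18, 1.38 ± 0.49 for pals-8, 1.11 ± 0.30 for pals-19, 1.05 ± 0.10 for pals-23 and 1.04 ± 0.09 for pals-24. pals-22 (-0.20 ± 0.17) and pals-25 (-0.36 ± 0.20) did not pass, and pals-5 was at 0, 0.0816 and 0 CPM at generation 1 and 0 in all 3 libraries at 20°C and was not tested. pals-8 lost its call without simr-1 20°C replicate 1 or 2 or generation 1 replicate 1 or 2 (log2 fold change 1.24 to 1.36), pals-19 without 20°C replicate 1 (0.86) and pals-23 without generation 1 replicate 3 (0.98). In the same animals 7 of 10 tested response genes outside the family rose, none of the 5 oocyte genes passed (6848 to 6963 CPM at generation 1, 6012 to 6324 CPM at 20°C), 1 of 4 epidermis genes fell, and of the regulators only pnp-1 rose (1.11 ± 0.06).

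simr-1 and wild-type animals were then compared directly within each culture. At 20°C, of 23 members tested, 1 was higher and 1 lower in simr-1 animals, against 1.90% and 1.20% of all genes. pals-30 was at 0.0720, 0.159 and 0.465 CPM in simr-1 animals and at 0 in all 3 wild-type libraries, at least 3.17-fold higher against the floor of 3 counts summed over these 3 libraries (edgeR adjusted p = 0.047). pals-33 was at 0.144, 0 and 0.332 CPM in simr-1 animals, against 0.822, 0.490 and 0.643 CPM in wild-type animals (log2 fold change -1.93 ± 0.64; edgeR adjusted p = 0.0495). Neither call was made by DESeq2, with RLE size factors or with the filterByExpr filter. pals-30 was not called when any of the 6 libraries was left out (4.62 to 4.84 without a wild-type library, with no value without a simr-1 library) and pals-33 without simr-1 replicate 1 or 2 or wild-type replicate 1 or 3 (-1.92 to -1.44), which left 1 call without simr-1 replicate 3 or wild-type replicate 2 and 0 without any of the other 4. pals-22 (0.10 ± 0.16), with simr-1 libraries at 3.82, 3.74 and 4.71 CPM, and pals-25 (0.51 ± 0.25), with simr-1 libraries at 4.18, 3.19 and 6.44 CPM, did not pass. None of the 9 tested response genes outside the family passed.

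In the first generation at 25°C the strains differed. Of 33 members tested, 25 were lower and none higher in simr-1 animals, against 21.7% of all genes that were lower, with a median log2 fold change of -2.44 over the tested members and -0.15 over all genes. For all 25, every simr-1 library was below every wild-type library. This separation was not counted over all genes, so it adds no support to the calls. pals-12 was at 0 in all 3 simr-1 libraries, so its fold has no fitted bound, and at 0.265, 0.334 and 0.243 CPM in wild-type animals. The largest other changes were those of pals-3, pals-15, pals-5, pals-7, pals-38, pals-9, pals-36, pals-39 and pals-37, between -4.75 and -2.93. The reporter gene pals-5 was at 0, 0.0816 and 0 CPM in simr-1 animals, against 0.265, 0.468 and 0.668 CPM in wild-type animals (log2 fold change -3.98 ± 0.92; edgeR adjusted p = 0.000746). pals-39 was at 0.726, 1.22 and 1.15 CPM in simr-1 animals, against 9.13, 9.76 and 8.56 CPM in wild-type animals (-3.14 ± 0.19; edgeR adjusted p = 1.4e-11). pals-6 was at 3.87, 3.84 and 4.76 CPM in simr-1 animals, against 12.2, 13.9 and 12.5 CPM in wild-type animals (-1.60 ± 0.13; edgeR adjusted p = 1.12e-09).

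The most abundant members differed by less than 2-fold: pals-24 was at 29.4, 28.6 and 29.6 CPM in simr-1 animals, against 56.6, 52.2 and 51.3 CPM in wild-type animals (log2 fold change -0.86 ± 0.07; edgeR adjusted p = 2.97e-09). pals-23 was also at -0.86 ± 0.08 and the repressor pals-17 at -0.93 ± 0.12, each past the adjusted p but short of the fold limit. pals-34, at -1.88 ± 0.13, and pals-18, at -1.27 ± 0.13, were lower. pals-22 was at 3.75, 3.10 and 4.31 CPM in simr-1 animals, against 4.14, 4.48 and 4.61 CPM in wild-type animals (-0.21 ± 0.17; edgeR adjusted p = 0.261). pals-25 was at 4.0, 4.0 and 3.56 CPM in simr-1 animals, against 3.72, 3.88 and 3.34 CPM in wild-type animals (0.09 ± 0.17; edgeR adjusted p = 0.657). Of 12 response genes outside the family, 9 were lower, among them eol-1 (-2.79 ± 0.21), skr-5 (-2.71 ± 0.18), F26F2.1 (-3.17 ± 0.99) and cul-6 (-1.31 ± 0.13), and sdz-6 was higher (2.41 ± 0.25). In this comparison all 5 oocyte genes were higher in simr-1 animals (6848 to 6963 CPM, against 1328 to 1632 CPM in wild-type animals), 2 of 3 muscle genes were lower (835 to 1011 CPM against 1805 to 2262 CPM) and 1 of 6 intestine genes was lower (3440.2 to 3486 CPM against 7196 to 8610.3 CPM). Of the other marker genes, 1 of 5 germ line genes was higher, 1 of 4 neuron genes was lower, and 1 sperm and 1 epidermis gene were higher and 1 of each lower. The part of these marker changes was not tested.

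**Figure D2:**
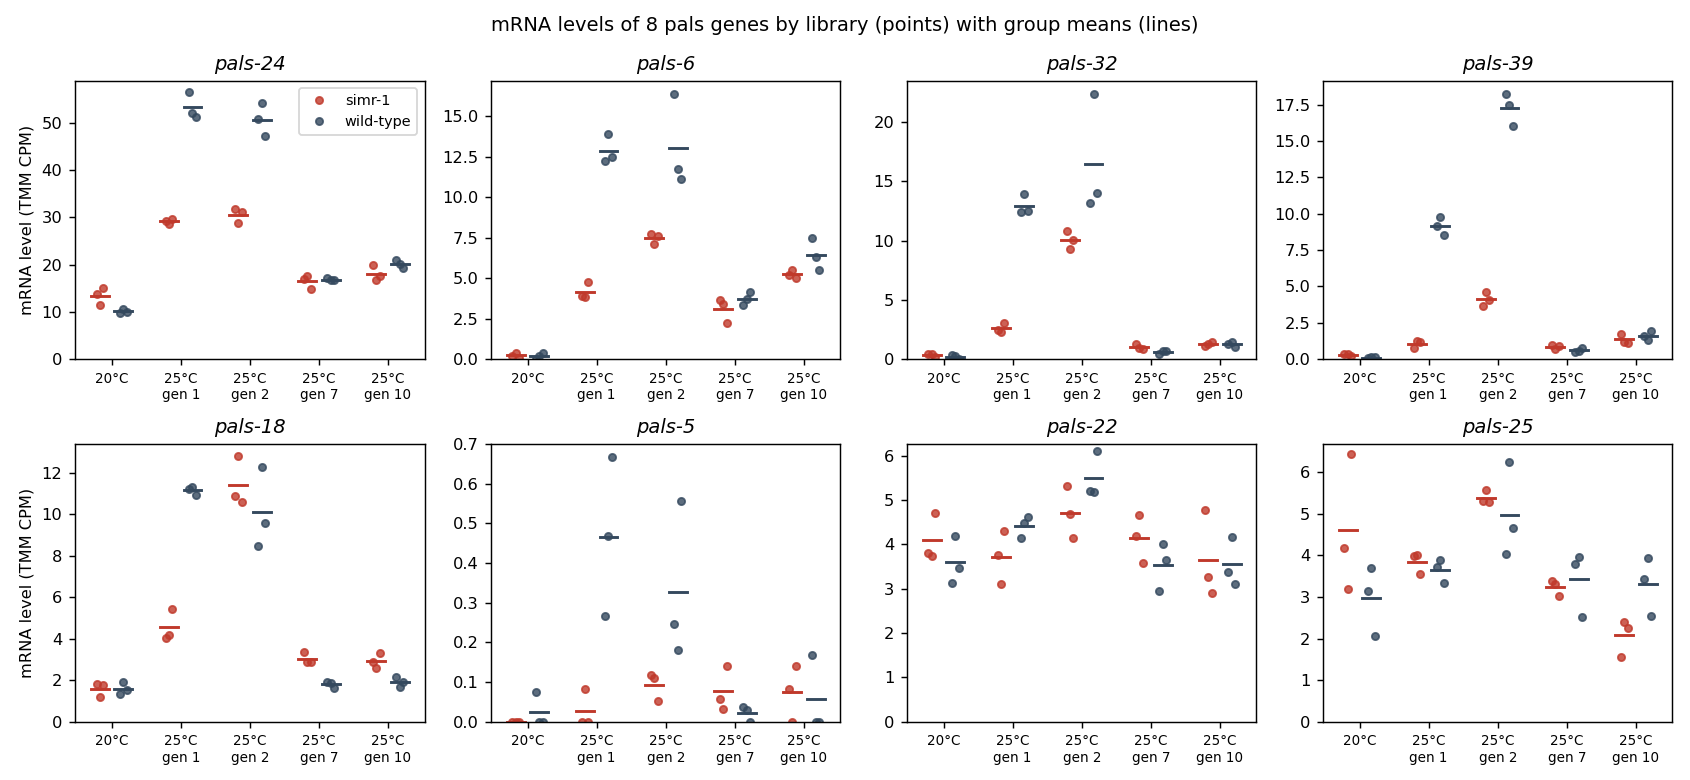
mRNA level in CPM (vertical axes) of 8 pals genes in each library (points) with group means (lines), for simr-1 (red) and wild-type (dark blue) at 20°C and at generations 1, 2, 7 and 10 of culture at 25°C. At generation 1, simr-1 libraries lay below all wild-type libraries for pals-24, pals-6, pals-32, pals-39, pals-18 and pals-5, while those of pals-25 overlapped.

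In the second generation 11 of 35 tested members were lower and none higher in simr-1 animals, against 5.45% of all genes that were lower. The median log2 fold change was -0.92 over the tested members and -0.02 over all genes. All 11 were among the 25 of 33 tested members that were lower at generation 1. Such an overlap was likely beforehand and was not counted over all genes. The 11 were pals-38 (-2.47 ± 0.29), pals-39 (-2.08 ± 0.15), pals-3 (-2.08 ± 0.40), pals-37 (-1.97 ± 0.20), pals-33 (-1.76 ± 0.29), pals-1 (-1.60 ± 0.27), pals-36 (-1.53 ± 0.46), pals-27 (-1.49 ± 0.36), pals-14 (-1.43 ± 0.21), pals-26 (-1.23 ± 0.25) and pals-8 (-1.0 ± 0.33). pals-39 was at 3.64, 4.64 and 4.04 CPM in simr-1 animals, against 18.2, 17.5 and 16.1 CPM in wild-type animals. The reporter gene pals-5 was at 0.117, 0.110 and 0.0512 CPM in simr-1 animals, against 0.246, 0.180 and 0.555 CPM in wild-type animals, and just missed the limit (-1.69 ± 0.63; edgeR adjusted p = 0.0509). pals-36 had overlapping groups and lost its call without simr-1 replicate 1 or 3 or wild-type replicate 3 (-1.47 to -1.28). pals-18 did not pass: it was at 10.9, 12.8 and 10.6 CPM in simr-1 animals, against 8.48, 12.3 and 9.59 CPM in wild-type animals (0.18; edgeR adjusted p = 0.419). Of 12 response genes outside the family 7 were lower, and 4 of 5 sperm genes were higher in simr-1 animals (44.3 to 59.6 CPM, against 7.68 to 9.32 CPM in wild-type animals). Of 4 epidermis genes 2 were higher and 1 lower (969 to 1221 CPM in simr-1 animals, 603 to 1019 CPM in wild-type animals). The oocyte sum was 2067 to 2798 CPM in simr-1 animals and 1248 to 2151 CPM in wild-type animals, with none of the 5 genes called. The part of these marker values was not tested.

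At generation 7, 4 of 31 tested members were higher and none lower in simr-1 animals, against 7.83% of all genes that were higher. pals-38 was at 0.374, 0.504 and 0.281 CPM in simr-1 animals, against 0.0728, 0 and 0.0978 CPM in wild-type animals (log2 fold change 2.87 ± 0.63; edgeR adjusted p = 0.0118). pals-30 (1.57 ± 0.50), pals-27 (1.5 ± 0.38) and pals-33 (1.26 ± 0.34) were the others, all with levels under 1 CPM. With the replicate number as a block pals-30 did not pass, and 3 members did. pals-30 lost its call without any single library of the 6 (1.25 to 1.85), pals-33 without simr-1 replicate 1 or 2 or wild-type replicate 1 or 2 (0.97 to 1.34) and pals-27 without simr-1 replicate 2 or wild-type replicate 1 (1.32 to 1.40), so that 1 member passed without simr-1 replicate 2 and 2 without simr-1 replicate 1. Without wild-type replicate 1, 2 members passed, and without wild-type replicate 2, 3 passed, each time with 1 member that was not called on all libraries. At generation 10, 1 of 30 tested members was lower and none higher, against 8.98% of all genes that were lower: pals-1 was at 0.822, 1.03 and 0.988 CPM in simr-1 animals and at 2.42, 1.62 and 2.08 CPM in wild-type animals (-1.07 ± 0.27; edgeR adjusted p = 0.00397). Without wild-type replicate 1 no member passed and pals-1 was at -0.95 to -0.92 (also without simr-1 replicate 1, where 3 others passed), and 2 passed without wild-type replicate 2. None of the 11 tested response genes outside the family passed at generation 7 or 10. Of 5 sperm genes, 3 were higher in simr-1 animals at generation 7 (8.56 to 12.03 CPM, against 4.01 to 5.40 CPM in wild-type animals) and 1 at generation 10 (10.99 to 13.8 CPM, against 6.74 to 10.6 CPM in wild-type animals). Of 4 epidermis genes, 1 was higher and 1 lower at generation 7 (586 to 704 CPM in simr-1 animals, 703 to 772 CPM in wild-type animals) and 2 were lower at generation 10 (224 to 267 CPM in simr-1 animals, 209 to 267 CPM in wild-type animals). Their part was not tested.

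The family's mRNA had lower sums at generations 7 and 10 than at generations 1 and 2 in both strains. Such sums are weighted to the most abundant members, pals-24 and pals-23. In simr-1 animals the sum over the 39 genes was 99.0 ± 5.28 CPM at generation 1, 149.7 ± 0.285 CPM at generation 2, 66.9 ± 7.29 CPM at generation 7 and 70.1 ± 1.5 CPM at generation 10, and in wild-type animals it was 246 ± 3.35, 257 ± 20.6, 64.2 ± 2.95 and 79.7 ± 4.32 CPM at the same generations (SD, n = 3 each). Between generation 10 and generation 1 in wild-type animals 23 of 34 tested members fell and none rose, against 14.5% of all genes that fell, with a median log2 fold change of -1.80 over the members and 0.04 over all genes. For all 23 the libraries did not overlap, a separation that was not counted over all genes and adds no support. pals-15 and pals-7 were among them and were at 0 in all 3 libraries at generation 10, against 0.955, 0.936 and 0.728 CPM for pals-15 and 0.738, 0.334 and 0.786 CPM for pals-7 at generation 1. pals-19 fell by 3.49, pals-32 by 3.30, pals-31 by 3.24, pals-5 by 2.93, pals-18 and pals-34 by 2.52 each, pals-39 by 2.50 and pals-8 by 2.4 on the log2 scale. pals-32 was at 1.30, 1.48 and 1.04 CPM at generation 10, against 12.4, 14.0 and 12.5 CPM at generation 1. All 5 oocyte genes rose in the same comparison (5264 to 5352 CPM at generation 10, 1328 to 1632 CPM at generation 1), 3 of 3 muscle genes and 2 of 6 intestine genes fell, 3 of 5 sperm genes rose and 1 fell, and 2 of 4 epidermis genes rose, and their part was not tested. In simr-1 animals 5 of 26 tested members rose and 1 fell between the same generations, against 12.2% and 1.57% of all genes. The median log2 fold change was 0.05 over the members and 0.03 over all genes, so the lower sum was not a decline across members. pals-24 was at 20.0, 16.7 and 17.6 CPM at generation 10 in simr-1 animals, against 29.4, 28.6 and 29.6 CPM at generation 1. pals-27 (2.58 ± 0.54), pals-38 (1.77 ± 0.55), pals-26 (1.40 ± 0.37), pals-33 (1.21 ± 0.47) and pals-1 (1.09 ± 0.36) rose, and pals-19 fell by 1.02. In the same comparison 4 of 5 sperm genes (10.99 to 13.8 CPM at generation 10, 3.63 to 4.54 CPM at generation 1) and 1 of 4 epidermis genes rose and 1 of 6 intestine genes fell, and their part was not tested. DESeq2 made 2 calls. Leaving out any of the 6 libraries gave 3 to 7 calls, the fewest without generation 10 replicate 2, where pals-38, pals-33, pals-1 and pals-19 did not pass. pals-33 and pals-19 were also lost without generation 1 replicate 1 or 2 or generation 10 replicate 3, pals-38 and pals-1 without generation 1 replicate 3, and pals-1 without generation 10 replicate 3. Over the fits in which they were lost, pals-33 was at 0.96 to 1.22, pals-19 at -0.98 to -0.73, pals-38 at 1.46 to 1.47 and pals-1 at 1.02 to 1.07.

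Set against 20°C, part of the family was still higher at the late generations in both strains. At generation 7, 11 of 26 tested members rose and none fell in simr-1 animals, against 14.5% of all genes that rose. At generation 10, 11 of 25 rose and 1 fell in simr-1 animals (18.9% and 2.52% of all genes). In wild-type animals 6 of 26 rose and 1 fell at generation 7 (10.4% and 2.46% of all genes). At generation 10, 11 of 29 rose and none fell in wild-type animals, where 29.2% of all genes rose. That count is not far from the background. pals-6, the readout gene, was at 5.18, 5.50 and 5.01 CPM at generation 10 in simr-1 animals, against 0.216, 0.398 and 0.0664 CPM at 20°C (log2 fold change 4.57 ± 0.32), and at 7.50, 6.33 and 5.48 CPM at generation 10 in wild-type animals, against 0, 0.163 and 0.386 CPM at 20°C (5.27 ± 0.37). Also past the test at generation 10 in both strains were pals-20, pals-37, pals-14, pals-38, pals-27, pals-39, pals-32, pals-26 and pals-1, with log2 fold changes of 1.41 to 3.53 in simr-1 animals and 2.07 to 3.80 in wild-type animals. The member that fell in simr-1 animals at generation 10 was the regulator pals-25. It was at 1.56, 2.41 and 2.26 CPM there, against 4.18, 3.19 and 6.44 CPM at 20°C (-1.12 ± 0.24; edgeR adjusted p = 0.000446). In wild-type animals pals-25 was at 3.44, 3.93 and 2.54 CPM at generation 10, against 3.14, 3.70 and 2.06 CPM at 20°C (0.03 ± 0.22). Between the strains at generation 10 its log2 fold change was -0.66 ± 0.23 (edgeR adjusted p = 0.0247), under 2-fold. In simr-1 animals 4 of 5 sperm genes were higher at generation 7 than at 20°C (8.56 to 12.03 CPM, against 3.43 to 4.54 CPM). All 5 sperm genes were higher at generation 10 than at 20°C (10.99 to 13.8 CPM, against 3.43 to 4.54 CPM), 1 of 4 epidermis genes was lower and none of the oocyte genes passed. Their part was not tested.

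**Figure D3:**
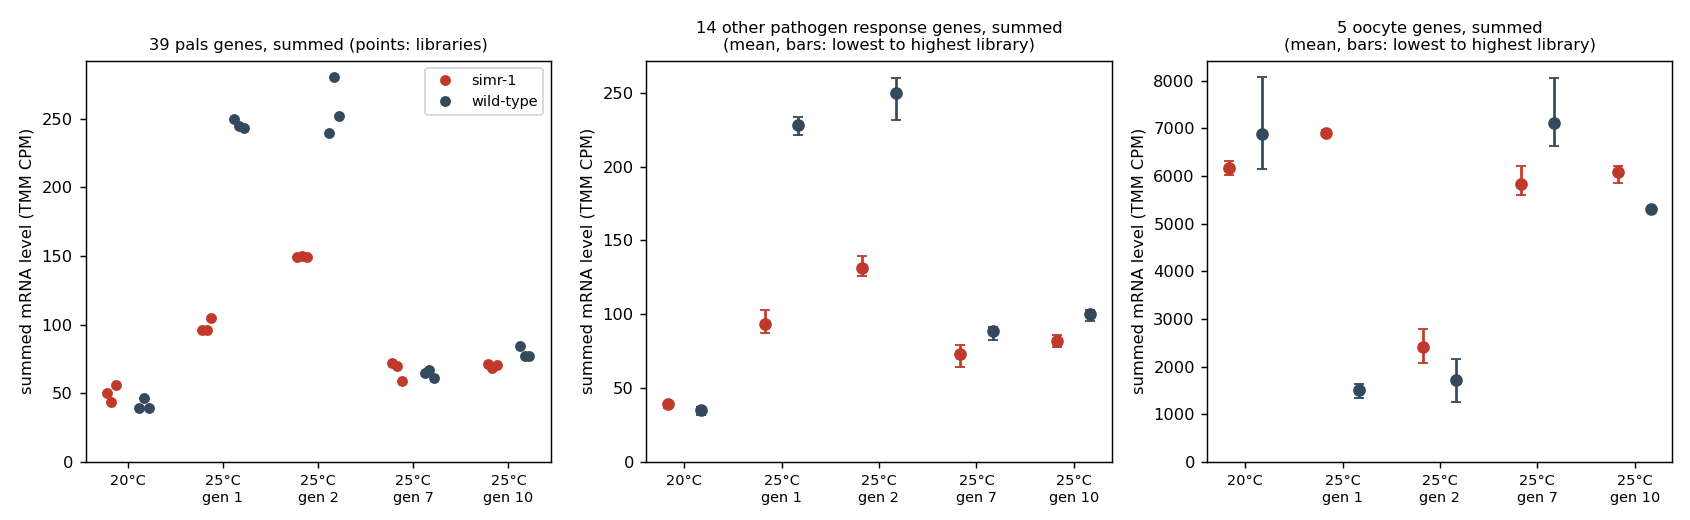
Summed mRNA level in CPM of the 39 pals genes (left; points are libraries), of 14 other pathogen response genes (middle) and of 5 oocyte genes (right; means with bars from the lowest to the highest library), for simr-1 (red) and wild-type (dark blue) at 20°C and 4 generations at 25°C. At generation 1 the pals sum was 95.8 to 105 CPM in simr-1 animals and 243 to 249.6 CPM in wild-type animals, and the oocyte sum 6848 to 6963 CPM in simr-1 animals and 1328 to 1632 CPM in wild-type animals.

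Whether the simr-1 effect itself differed between cultures was tested as an interaction. From 20°C to generation 1 the effect became more negative for 20 of 34 tested members and more positive for none, against 16.4% of all genes with a negative difference (median -2.11 over the members, -0.15 over all genes). The 10 largest were pals-36 (-6.39 ± 2.2), pals-30 (-6.22 ± 1.89), pals-38 (-4.87 ± 1.46), pals-39 (-4.57 ± 0.69), pals-27 (-3.31 ± 1.08), pals-14 (-3.15 ± 0.65), pals-32 (-2.88 ± 0.65), pals-37 (-2.67 ± 0.96), pals-31 (-2.61 ± 0.44) and pals-8 (-2.43 ± 0.88). pals-30 and pals-36 were at 0 in all wild-type libraries at 20°C, so their values are no bounds. The abundant pals-24 (-1.25 ± 0.13; edgeR adjusted p = 3.47e-08), pals-23 (-1.24 ± 0.14) and pals-18 (-1.22 ± 0.28) were among the 20, whereas pals-22 (-0.36 ± 0.23; edgeR adjusted p = 0.208) and pals-25 (-0.46 ± 0.30; edgeR adjusted p = 0.209) were not. Leaving out simr-1 20°C replicate 3 removed the calls of pals-36 (-3.21), pals-38, pals-27 and pals-8, and simr-1 20°C replicate 1 those of pals-38, pals-27 and pals-37. pals-37 was also lost without simr-1 20°C replicate 2 and pals-8 without wild-type 20°C replicate 1. In these fits pals-38 was at -4.59 to -4.52, pals-27 at -3.02 to -2.94, pals-37 at -2.69 to -1.56 and pals-8 at -2.28 to -1.90. From generation 1 to generation 10 the effect became more positive for 23 of 34 tested members and more negative for none, against 12.2% of all genes with a positive difference (median 2.19 over the members, 0.17 over all genes). Among the 10 largest were pals-38 (4.06 ± 0.62), pals-33 (3.27 ± 0.52), pals-39 (3.09 ± 0.35) and pals-27 (3.01 ± 0.61). The calls of pals-7 (6.76 ± 2.37), pals-15 (6.39 ± 2.51), pals-12 (5.23 ± 2.01), pals-5 (4.62 ± 1.83), pals-3 (3.84 ± 1.10) and pals-30 (3.29 ± 1.27) were each lost without at least 1 of the 12 libraries, with values of 2.17 to 6.36 in those fits: pals-7 without simr-1 generation 10 replicate 1, pals-3 without simr-1 generation 10 replicate 2, pals-15 in 7 fits and pals-12, pals-5 and pals-30 in 8 fits each. pals-7 and pals-15 were at 0 in all wild-type libraries at generation 10 and pals-12 in all simr-1 libraries at generation 1, so their values are no bounds. Marker genes moved with both tests. In the first, 5 of 5 oocyte genes and 1 gene each of the germ line, intestine and epidermis lists had a positive difference, and 2 of 3 muscle and 2 of 4 neuron genes a negative one. In the other, 3 of 3 muscle, 2 of 5 sperm and 2 of 6 intestine genes had a positive difference, and 5 of 5 oocyte and 3 of 4 epidermis genes a negative one. Their part was not tested. pals-22 (0.40 ± 0.26) and pals-25 (-0.59 ± 0.28) did not pass.

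Small RNAs on the same genes were expressed as RPM, relative to genome-mapped reads, and reads of both strands were counted together. The 20 replicated libraries held 2835252 to 12893224 counted reads, 41.1 to 69.4% of the mapped reads. This share was 41.1 to 43.5% in wild-type animals at generations 1 and 2 and 50.8 and 45.3% in simr-1 animals at generation 2. In the other replicated libraries it was 58.7 to 69.4%. RPM therefore rests on a share that differed between some compared groups. Most members had few: in wild-type animals at 20°C 6 genes held 95.9% and 96.1% of the family's small RNA reads in the 2 libraries. These were pals-22 (215 RPM on average), pals-25 (44.2), pals-18 (39.3), pals-1 (11.7), pals-26 (7.86) and pals-14 (7.37), and pals-22 alone held 62.0% and 65.0%. pals-5 had at most 0.307 RPM in any of the 20 libraries, and was tested in none of the comparisons. A member is said to rise or fall here when it also reached a mean of 10 RPM in a compared group. Words of 22 bases were unique in the genome over 100.0% of the exons of pals-22 and pals-25, but over 58.1 to 76.7% for pals-36, pals-11, pals-7, pals-13 and pals-37.

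Both genes of the regulatory pair had fewer small RNAs in simr-1 animals at 20°C. pals-22 was at 67.3 and 61.7 RPM in simr-1 animals, against 212 and 219 RPM in wild-type animals (log2 fold change -1.82 ± 0.05, SE, n = 2 each; edgeR adjusted p = 1.53e-13). pals-25 was at 7.69 and 8.03 RPM in simr-1 animals, against 43.1 and 45.3 RPM in wild-type animals (-2.57 ± 0.12; edgeR adjusted p = 9.57e-11). pals-1 was at 2.85 and 3.71 RPM in simr-1 animals, against 14.7 and 8.79 RPM in wild-type animals (-1.94 ± 0.23; edgeR adjusted p = 6.38e-06), and without wild-type replicate 1 its wild-type level was under 10 RPM (-1.53). These were the 3 of 15 tested members that fell, and none rose, against 5.64% of all genes that fell. In the other direction, pals-18 was at 68.2 and 68.6 RPM in simr-1 animals, against 41.3 and 37.4 RPM in wild-type animals, a log2 fold change of 0.71 that is under 2-fold. The wild-type libraries did not overlap those of simr-1 for any of these 4 genes. With 2 libraries in each group and no count of this separation over all genes, it adds no support to the calls.

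The same genes were lower in simr-1 animals at 25°C. At generation 1, 3 of 16 tested members were lower and none higher, against 9.18% of all genes that were lower: pals-25 (-4.21 ± 0.16), pals-1 (-3.91 ± 0.21) and pals-22 (-2.55 ± 0.06). Small RNAs on marker genes moved with this comparison: they were higher in simr-1 animals on 5 of 5 germ line genes (1006 to 1029 RPM summed, against 280.2 to 289 RPM in wild-type animals) and on 4 of 5 oocyte genes (914 to 954 RPM, against 260.4 to 262 RPM), and lower on 1 intestine and 1 neuron gene. At generations 2, 7 and 10 the same neuron list had 1 gene lower each time and the intestine list 1 at generations 2 and 10. Their part was not tested. At generation 2 the 3 of 21 tested members that were lower (8.12% of all genes) were pals-1 (-3.76 ± 0.22), pals-25 (-3.35 ± 0.21) and pals-22 (-3.13 ± 0.12). Scaled to mapped reads, 4046 genes were higher and 1032 lower at generation 1 (2512 and 1316 with TMM) and 1627 were higher and 971 lower at generation 2 (279 and 1266 with TMM), and pals-22 was at -2.08 and -2.77. At generation 7 pals-22 (-5.38 ± 0.07) and pals-1 (-4.27 ± 0.19) were lower, 2 of 14 tested (8.06% of all genes), while pals-25, at -2.65 ± 0.22, was under 10 RPM in both strains. At generation 10 pals-22 (-4.99 ± 0.10), pals-1 (-3.49 ± 0.25) and pals-26 (-1.60 ± 0.20) were lower, 3 of 10 tested (12.4% of all genes). No member was higher at any of these times. pals-22 stood at 4.92 and 5.02 RPM in simr-1 animals at generation 10, against 152 RPM in each of the wild-type libraries. pals-26 was at 5.54 and 6.96 RPM in simr-1 animals, against 19.7 and 15.9 RPM in wild-type animals.

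**Figure D4:**
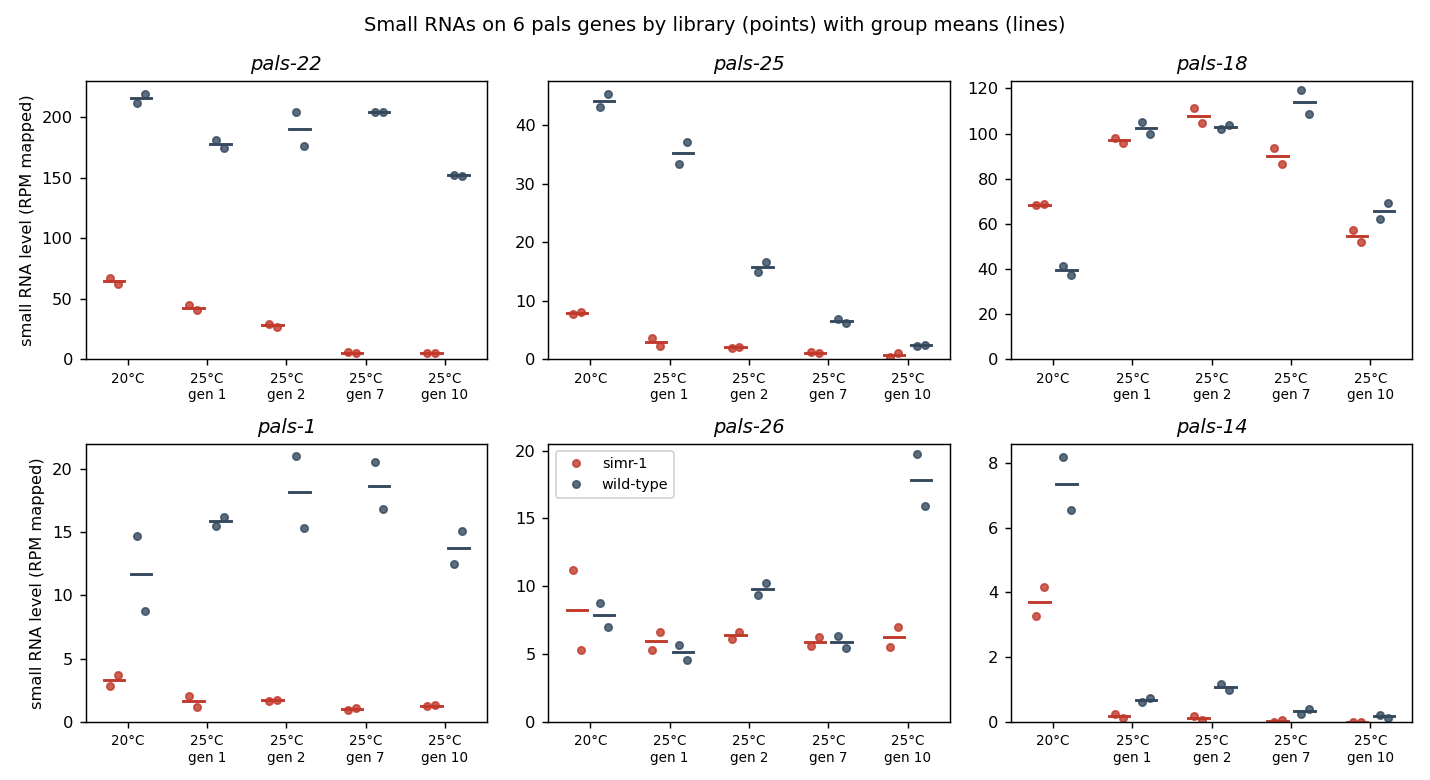
Small RNA level in RPM of genome-mapped reads (vertical axes) on 6 pals genes in each library (points) with group means (lines), for simr-1 (red) and wild-type (dark blue) at 20°C and at generations 1, 2, 7 and 10 of culture at 25°C. pals-22 was at most 67.3 RPM in every simr-1 library and at least 152 RPM in every wild-type library, and the mean of pals-25 was lower at each later time in both strains.

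In simr-1 animals pals-22 averaged 64.5 RPM at 20°C, 42.4 at generation 1, 27.9 at generation 2, 5.19 at generation 7 and 4.97 at generation 10, and in wild-type animals 215, 178, 190.3, 204 and 152 RPM. pals-25 averaged 7.86, 2.89, 2.00, 1.09 and 0.707 RPM in simr-1 animals at the same times, and 44.2, 35.3, 15.8, 6.52 and 2.37 RPM in wild-type animals. Tested against 20°C in wild-type animals, pals-25 fell at generation 7 (-2.62 ± 0.14; edgeR adjusted p = 1.53e-13) and at generation 10 (-3.79 ± 0.16; edgeR adjusted p = 6.82e-11). It was the 1 member of 14 tested that fell each time (3.97% and 4.80% of all genes). With the same TMM scaling pals-22 was at 0.07 ± 0.05 and -0.08 ± 0.06 and did not pass. Relative to mapped reads it was lower at generation 10 (152 RPM against 215 RPM at 20°C), so its course in wild-type animals depends on the scaling. In simr-1 animals pals-22 fell at generation 7 (-3.49 ± 0.10; edgeR adjusted p = 4.22e-11) and generation 10 (-3.40 ± 0.11; edgeR adjusted p = 2.7e-09), 1 of 18 and 1 of 13 tested members (4.08% and 5.42% of all genes). pals-25, at -2.70 ± 0.18 and -3.18 ± 0.31, was under 10 RPM throughout in simr-1 animals. The mRNA of pals-22 passed the test in none of the 15 comparisons while these small RNAs changed, and that of pals-25 only between generation 10 and 20°C in simr-1 animals.

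In wild-type animals pals-18 had more small RNAs at 25°C. It was at 105 and 99.6 RPM at generation 1, against 41.3 and 37.4 RPM at 20°C (log2 fold change 2.25 ± 0.08; edgeR adjusted p = 7e-14). pals-1 was at 15.5 and 16.2 RPM at generation 1, against 14.7 and 8.79 RPM at 20°C (1.29 ± 0.18; edgeR adjusted p = 7.35e-06). They were the 2 of 18 tested members that rose, with none that fell, against 8.86% of all genes that rose. The call of pals-1 ended without wild-type 20°C replicate 2 (0.99), which left 1 call, and when libraries were scaled to mapped reads (0.42). With this scaling all genes had a median of -0.79 in this comparison, against 0.07 with TMM, and it turned the values of pals-22 (0.59 with TMM, -0.28 scaled to mapped reads) and pals-25 (0.54 and -0.33), while pals-18 rose under both (1.38 scaled to mapped reads). Over all genes, 659 rose and 4026 fell with that scaling, against 1272 and 963 with TMM. pals-18 rose again at generation 7 (1.67 ± 0.08), as 1 of 14 tested (5.99% of all genes). At generation 10 pals-18 and pals-26 rose with TMM (1.16 ± 0.08 and 1.62 ± 0.19), 2 of 14 tested (11% of all genes rose). Relative to mapped reads pals-18 was at 62.3 and 69.2 RPM at generation 10, less than 2-fold above its 41.3 and 37.4 RPM at 20°C. In simr-1 animals no member of 16 tested passed at generation 1 over 20°C with edgeR or with DESeq2, against 4.52% of all genes in either direction, and 9 had an unadjusted p under 0.05. pals-18 was at 97.9 and 95.99 RPM at generation 1 in simr-1 animals, against 68.2 and 68.6 RPM at 20°C (0.64), and at 51.8 and 57.4 RPM at generation 10 (-0.03). In wild-type animals at generation 1 over 20°C small RNAs fell on 5 of 5 germ line genes (280.2 to 289 RPM summed at generation 1, 1621 to 1633 RPM at 20°C) and on 1 of 5 oocyte genes and rose on 1 intestine and 1 neuron gene. At generation 10 they fell on 3 germ line genes and rose on 1 intestine and 1 neuron gene, and at generation 7 they rose on 1 neuron gene. In simr-1 animals at generation 10 they rose on 1 oocyte gene. In the interaction that follows, 5 germ line and 4 oocyte genes had a positive difference and 1 intestine and 1 neuron gene a negative one. The part of these marker changes was not tested. As an interaction, the simr-1 effect became more negative from 20°C to generation 1 for 3 of 26 tested members and more positive for none, against 6.81% of all genes with a negative difference: pals-1 (-2.09 ± 0.36), pals-25 (-1.74 ± 0.22) and pals-18 (-1.40 ± 0.09). Scaled to mapped reads, that of pals-18 was -0.88 and did not pass, and 3591 genes had a positive and 614 a negative difference, against 1367 and 1156 with TMM.

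pals-14, whose mRNA rose in wild-type animals at generation 1, was at 0.254 and 0.109 RPM of small RNAs in simr-1 animals at generation 1, against 3.28 and 4.16 RPM at 20°C, and at 0.614 and 0.738 RPM in wild-type animals at generation 1, against 8.19 and 6.55 RPM at 20°C. It stayed under 10 RPM everywhere and therefore falls outside the calls. pals-6 and pals-39, whose mRNAs rose by the largest factors among members with counts at 20°C, had at most 2.37 and 0.767 RPM of small RNAs in any replicated library.

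The 14 single libraries at 20°C place the pals genes among mutants of small RNA factors. MUT-16 is the scaffold of the mutator complex, RDE-8, NYN-1 and NYN-2 are ribonuclease-related proteins that act with it, and WAGO-1 is an Argonaute. These libraries have no replicates, so ratios are given with exact intervals that cover counting error alone, and 1 library cannot show how strains differ. They held 2392511 to 50329478 counted reads, 53.6 to 68.6% of the mapped reads, with the wild-type library the deepest. pals-22, pals-25, pals-18 and pals-1 were the members over 10 RPM in the wild-type library, at 221, 32.4, 44.3 and 17.6 RPM. For pals-22 the lowest levels were in mut-16 (28.9 RPM, 0.131 of wild-type, 95% interval 0.109 to 0.156) and nyn-1; nyn-2 (34.5 RPM, 0.156, 0.134 to 0.181), followed by simr-1 (69.0 RPM, 0.313, 0.274 to 0.355) and rde-8 (74.6 RPM, 0.338, 0.303 to 0.375), whose intervals overlap. It was at 108 RPM in wago-1, 121 RPM in math-33, 153 RPM in simr-1; hpo-40 and 162 RPM in C33G3.6, and between 230.3 and 326 RPM in rsd-2, Y57G11C.3, hgo-1, F37C4.5 and hpo-40, at or above wild-type.

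Counting the 4 members past a 2-fold decrease, all 4 were lower in mut-16 (27% of all genes were), nyn-1; nyn-2 (20.9%) and rde-8 (18.2%), 3 in simr-1 (12.5%), 2 in simr-1; hpo-40 (14.8%) and in math-33 (37.6%), and 1 in wago-1 (11.1%). None of the 4 was past 2-fold in the other 6 mutants, where at most 9.49% of all genes (in C33G3.6) were past a 2-fold decrease. No member was past a 2-fold increase in any mutant. Of all genes, 21.1% were in math-33, 13.8% in mut-16 and at most 7.68% (in wago-1) in the rest. With 4 or 5 members compared per mutant, such absences cannot set the family apart from other genes. pals-14 also reached 10 RPM in hpo-40 and F37C4.5, and was not past 2-fold there. pals-18 was at 1.07 RPM in rde-8 (0.024 of wild-type, 95% interval 0.0078 to 0.0562), 2.64 RPM in nyn-1; nyn-2 (0.0596, 0.0326 to 0.1) and 7.58 RPM in mut-16 (0.171, 0.117 to 0.241), but at 38.6 RPM in simr-1 (0.872, 0.729 to 1.04). The interval of simr-1 does not reach those of the 3 mutator mutants. pals-25 was at 4.82 RPM in mut-16 (0.149), 6.04 in nyn-1; nyn-2 (0.186), 7.13 in simr-1; hpo-40 (0.220), 9.16 in rde-8 (0.283), 9.82 in math-33 (0.303) and 9.94 in simr-1 (0.307), and at 26.1 to 54.7 RPM in the other 7 mutants. pals-1 rested on few reads, with 1 read in simr-1 (ratio 0.0162, 0.000409 to 0.0902), 9 in mut-16 and 13 in nyn-1; nyn-2. In math-33, which the study listed as asynchronous, 37.6% of all genes were past a 2-fold decrease, and stage and mutation cannot be told apart there. The library of simr-1; hpo-40 differed from that of simr-1 for pals-22 (0.693 of wild-type, 0.645 to 0.744, against 0.313, 0.274 to 0.355), and hpo-40 alone was at 1.48 (1.41 to 1.55).

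**Figure D5:**
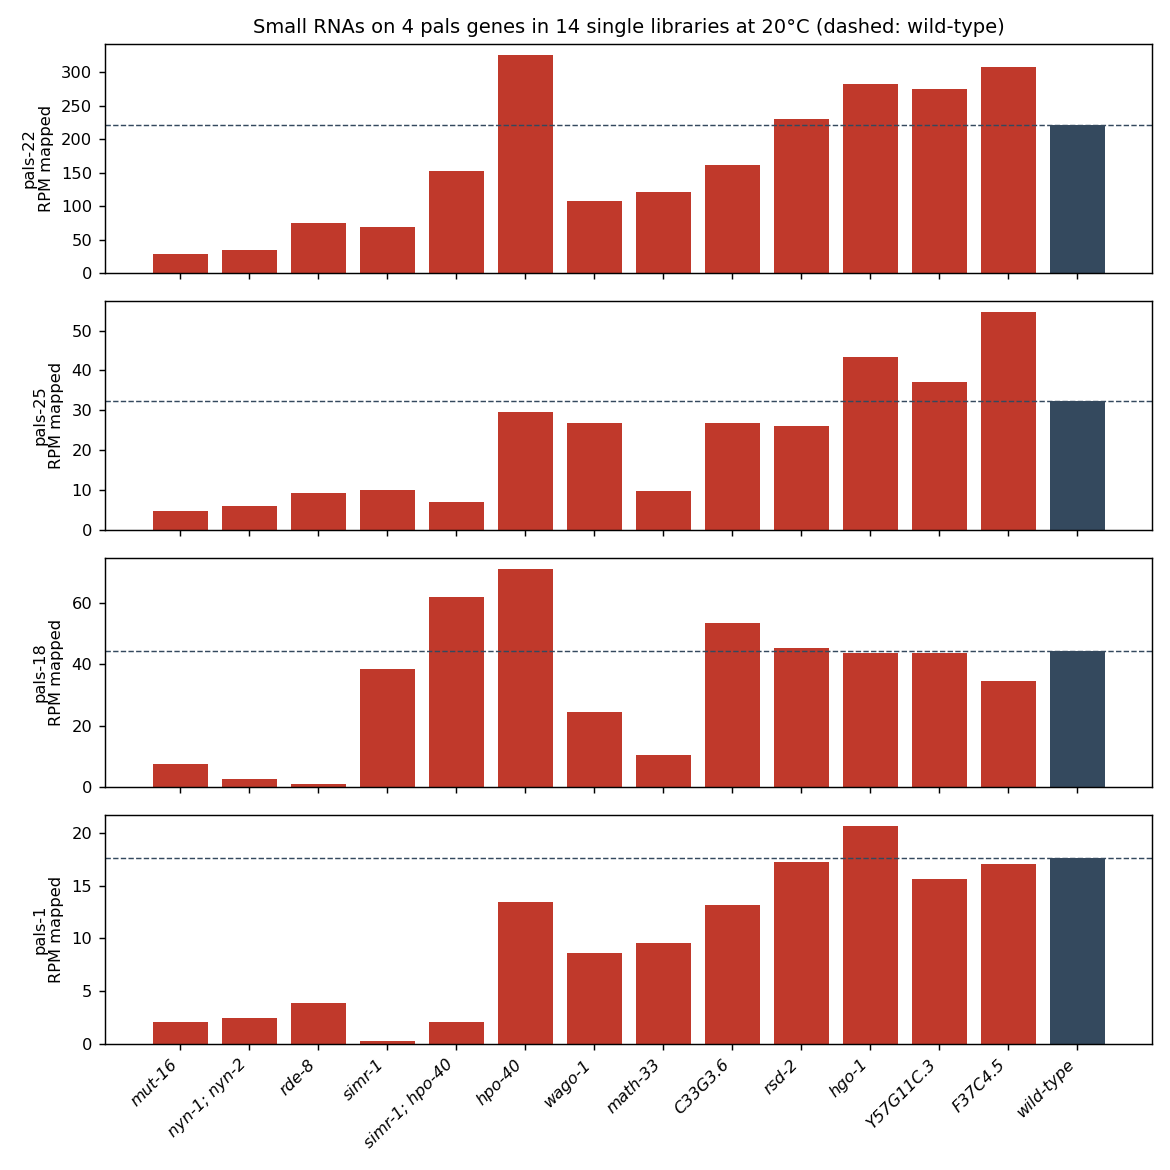
Small RNA level in RPM of genome-mapped reads (bar height, from 0) on pals-22, pals-25, pals-18 and pals-1 in 14 single libraries at 20°C, mutants in red and wild-type in dark blue, with the wild-type level as a dashed line. pals-18 was at 1.07 to 7.58 RPM in mut-16, nyn-1; nyn-2 and rde-8 and at 38.6 RPM in simr-1, while pals-22 and pals-25 were below the wild-type level in all 4.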

How the data were processed

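Small RNA and mRNA libraries were made from whole Day 1 adult hermaphrodites. The authors clipped and quality-filtered small RNA reads with FASTX, aligned them to the WS258 genome with Bowtie2 and deposited expected counts per gene from featureCounts 1.5.1, with reads shared fractionally between overlapping genes and with no strand option, so both strands were counted. For mRNA the authors trimmed reads with Cutadapt, used HISAT2 and Salmon on WS258 and deposited estimated counts per gene. Which of these tools gave the mRNA values, and whether strand was used, is not given in the sources used here. Of the deposited values, 95.0 to 97.0% (mRNA) and 91.8 to 95.9% (small RNA) were whole numbers. Names repeated in the mRNA tables (1066 of 46970 lines) were summed to 45904.

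Expected counts were rounded and tested with edgeR 4.0.16 (R 4.3.3; quasi-likelihood F test, TMM) on the compared groups only, leaving out features whose counts summed to less than 10. A call needed a p no higher than 0.05 after Benjamini-Hochberg adjustment over all features, a change of 2-fold or more and, for small RNAs, 10 RPM or more as the mean of a compared group. Standard errors are the log2 fold change divided by the square root of F. RPM used the mapped reads of the study's library list. Single libraries were compared as log2 ratios with a pseudocount of 0.5 RPM and no test. A floor of 3 counts summed over the libraries of a group was used for groups at 0. Nothing in the labels says that replicates came from separate cultures, so p-values measure the spread between these libraries, which may be technical. No pair of libraries agreed within sampling noise (chi-square per degree of freedom 1.18 to 5.38 for small RNA and 1.68 to 52.1 for mRNA). The lowest, 1.18, was that of the wild-type small RNA pair at 20°C, which lies close to counting noise. Its spread may therefore understate that between separate cultures. Intervals and floors cover counting error only.

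Alternatives were DESeq2 1.42.0, other scalings and filters, the replicate number as a block, other generations, and leaving out each library. Same-numbered mRNA libraries deviated together in all 3 pairs (correlations 0.11 to 0.24) only between the strains at generation 7. The block value is given there. Same-numbered small RNA libraries of the strains at generation 2 also deviated together (0.28). The replicate numbers come from the labels. The fits were tested on simulated counts with known changes, of which edgeR called 90.3 to 100%. The changed features had far higher counts than the filter required, so calls of scarce members were not checked in this way.

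The family members and the gene lists were chosen with earlier results of these data known. pals-22, pals-25 and pals-5 were named throughout, with the called members of each comparison, at most 10 by size of change, the 5 members with the highest mRNA level per kb and the 6 with the most small RNAs in wild-type animals at 20°C. Other members were named after their values were seen. B0284.2, a known response gene, is pals-27 and was counted as a member. Coordinates and sequences come from the RefSeq annotation of WBcel235, in which 11 of 39 members had the same coordinates as in the count tables. Sequences on chromosome I are not shown. The window of a further member is not reported here. Python 3.11.15, pandas 2.3.3, numpy 2.4.6, scipy 1.17.1 and matplotlib 3.10.9 were used for levels and figures.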

Additional observations from a re-analysis of the deposited data

Results flagged for a closer look

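The effect of simr-1 on pals mRNA differed between cultures in edgeR's interaction tests. Between 20°C and the first generation at 25°C the difference was negative for 20 of 34 tested members, against 16.4% of all genes. The largest were pals-36 at -6.39, pals-30 at -6.22, pals-38 at -4.87 and pals-39 at -4.57 on the log2 scale. pals-36 and pals-30 were at 0 in all wild-type libraries at 20°C, so their values are no bounds. Without simr-1 20°C replicate 3 the calls of pals-36 (-3.21) and pals-38 (-4.59) were lost. Between generation 1 and generation 10 the difference was positive for 23 of 34 tested members, against 12.2% of all genes. The largest were pals-7 at 6.76, pals-15 at 6.39, pals-12 at 5.23 and pals-5 at 4.62, which rest on libraries at or near 0. For small RNAs the effect of simr-1 became more negative from 20°C to generation 1 for 3 of 26 tested members, against 6.81% of all genes. These were pals-1 at -2.09, pals-25 at -1.74 and pals-18 at -1.40.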

How the results depend on the processing

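The numbers of members called moved by more than 1.5 times in the following settings. At 20°C, where 2 mRNAs differed between simr-1 and wild-type animals, 0 passed with DESeq2, with RLE size factors or with filterByExpr, 1 with the replicate block and 4 with no fold limit. With no fold limit 20 passed at generation 2, 5 at generation 10 and 14 in simr-1 animals between generation 10 and generation 1. DESeq2 and filterByExpr each gave 2 at generation 7 and 2 in simr-1 animals between generation 10 and generation 1. In wild-type animals over 20°C, 7 passed at generation 7 and 11 at generation 10 in place of 29 at generation 1. For small RNAs with no minimum of 10 RPM, 9 members passed between the strains at 20°C, 11 at generation 1, 12 at generation 2, 4 at generation 7 and 6 at generation 10, and at generation 1 over 20°C 6 in simr-1 animals and 8 in wild-type animals. With no fold limit these last numbers were 2 and 4, scaling to mapped reads gave 1 in wild-type animals, and generation 7 or generation 10 gave 1 each in simr-1 animals. The use of other generations and library-size scaling was chosen after seeing the data. Shares of all genes with no RPM or fold limit are not given here, so those larger counts cannot set the family apart. The cause of the changes in number was not tested.

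When libraries were left out singly, the mRNA calls between the strains ranged from 0 to 1 at 20°C, 22 to 25 at generation 1, 10 to 14 at generation 2, 1 to 3 at generation 7 and 0 to 3 at generation 10. They ranged from 9 to 11 in simr-1 and 27 to 29 in wild-type animals at generation 1 over 20°C, 3 to 7 in simr-1 and 21 to 23 in wild-type animals between generation 10 and generation 1, and 15 to 20 and 16 to 23 in the interactions. Small RNA calls ranged from 2 to 3 at 20°C, 3 to 4 at generation 2 and 1 to 2 in wild-type animals at generation 1 over 20°C, and were 3, 2 and 3 at generations 1, 7 and 10, 0 in simr-1 animals and 3 in the interaction in every such fit, where the lone library of a group was assumed to vary like the other group. Over 102 calls of named members, 1195 alternative values kept their direction and side of the threshold, 128 kept the direction but not the call, and none reversed. Fits in which the member was not tested gave no value and are left out, so lost calls are understated. These members were picked because the main fit called them. Counted by library size alone, the median of all genes was 0.43 in place of 0.28 in wild-type animals at generation 1 over 20°C, and pals-22 mRNA was at -0.04 in place of 0.04 at generation 10. The replicate block gave 25 calls at generation 1, 12 at generation 2, 3 at generation 7 and 1 at generation 10, with 19 and 20 in the interactions, and left the small RNA counts as they were. Apart from generation 7, correlations of same-numbered libraries were -0.09 to 0.37 for mRNA and -0.04 to 0.28 for small RNA. The highest were between the strains at generation 2, with 0.37, 0.23 and 0 for mRNA and 0.28 for small RNA. With 2 small RNA libraries per group the deviations mirror each other, so both pairs give 1 value. The depth of the mRNA libraries left pals-10, pals-21 and other scarce members untested in most comparisons.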
